A study of Mus musculus with 4 samples.

Results

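The type 2 cytokine-positive Foxp3-negative cells of the mouse small intestine lamina propria are described here. They were chosen by transcript: at least 1 UMI of Il4, Il5 or Il13, at least 1 UMI of Gata3 and no UMI of Foxp3. A UMI is a molecular tag that marks 1 captured RNA molecule. The rule found 347 of 22534 cells, 1.54% of the cells kept and 1.67% of the 20800 Foxp3-negative cells. The first comparison was with the 20121 Foxp3-negative cells in which all 3 cytokines had no UMI, called cytokine-negative cells.

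The cells came from 4 single-cell libraries of one group: CD4 T cells of wild-type C57Bl/6 animals, sorted as live cells with CD45, CD3 and CD4 from digested tissue freed of Peyer's patches and prepared with 10x Genomics 5′ chemistry. The design text names 4 mice, but the labels do not say which mouse gave which library, so replicates are called libraries 1 to 4. The p-values describe the difference between classes of cells of the same libraries. They measure it against how much that difference varies from library to library, and this variation may be technical. No genotype, treatment or time was compared. The libraries held 28783972, 26407082, 23918884 and 26681150 UMIs in total. Libraries shared 34 to 51 cell barcodes per pair, and no barcode belonged to a chosen cell in both libraries of a pair. Whether chosen cells shared a barcode with other cells of another library was not counted.

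Type 2 helper T cells are known for making interleukin-4, interleukin-5 and interleukin-13. These cytokines act on B cells, eosinophils and the epithelium and are made in the gut in response to helminths and allergens. Gata3 is the transcription factor that installs and keeps this programme, and in tissues the cells answer alarmins of the epithelium, interleukin-25 (through Il17rb) and interleukin-33 (through Il1rl1). Gata3 is also found in a part of the regulatory T cells of the gut, which is why cells with Foxp3, the regulatory factor, were held apart.

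The 3 cytokine genes lie in one cluster on mouse chromosome 11 (mm10): Il4 at 53602982 to 53618669 on the minus strand, Il13 at 53631324 to 53634702 on the minus strand and Il5 at 53720794 to 53725106 on the plus strand. All 3 are protein-coding. Their promoters are shown because the rule rests on these genes and on Gata3, whose protein family binds GATA motifs. Each sequence runs from 250 bases before to 50 bases after the transcript start as RefSeq gives it on GRCm38.p6, 5′ to 3′ on the gene's own strand. Capitals mark a match to one of 4 motifs or its reverse complement on the other strand. The first motif searched was AGATAA. The second was AGATAG. The others were TGATAA and, differing in its last base, TGATAG.
Il4, chr11:53618616-53618915, minus strand: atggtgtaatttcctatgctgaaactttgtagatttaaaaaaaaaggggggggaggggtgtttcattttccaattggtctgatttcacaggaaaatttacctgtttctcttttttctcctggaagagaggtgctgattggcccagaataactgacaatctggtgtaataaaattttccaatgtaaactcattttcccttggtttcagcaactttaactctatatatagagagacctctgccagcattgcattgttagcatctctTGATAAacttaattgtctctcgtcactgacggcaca
Il13, chr11:53634653-53634952, minus strand: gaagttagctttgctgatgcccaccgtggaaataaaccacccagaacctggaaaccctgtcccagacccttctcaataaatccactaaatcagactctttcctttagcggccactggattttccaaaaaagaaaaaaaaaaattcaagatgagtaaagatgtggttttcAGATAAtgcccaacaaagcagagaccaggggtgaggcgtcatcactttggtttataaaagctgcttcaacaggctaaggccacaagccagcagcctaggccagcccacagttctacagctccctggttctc
Il5, chr11:53720544-53720843, plus strand: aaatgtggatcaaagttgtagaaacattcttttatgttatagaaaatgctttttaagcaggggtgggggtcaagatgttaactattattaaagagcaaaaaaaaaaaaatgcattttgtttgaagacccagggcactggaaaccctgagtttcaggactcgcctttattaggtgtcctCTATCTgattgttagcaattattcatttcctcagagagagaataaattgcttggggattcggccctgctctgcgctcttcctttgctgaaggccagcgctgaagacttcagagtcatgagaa
Each of the 3 held 1 match: TGATAA at position 14 after the start in Il4, AGATAA at -81 in Il13 and CTATCT, a match on the opposite strand, at -72 in Il5. Of 32851 promoters of the same length, 29.8% held at least 1 match, so a match is a description of the window and not a binding site.

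The number of chosen cells differed between libraries. Libraries 1 to 4 held 98, 50, 49 and 150 of them, which was 1.88%, 0.929%, 0.954% and 2.96% of Foxp3-negative cells (mean 1.68 ± 0.959%, SD, n = 4). With each cell first thinned to 2000 UMIs, the rule found 31, 25, 28 and 64 cells, or 0.588%, 0.464%, 0.55% and 1.28%, so that library 1 then lay near libraries 2 and 3 and library 4 alone stood higher. Without thinning, most held Il4 and neither of the other cytokines: 262 of 347 were Il4-only cells (96, 38, 35 and 93 in libraries 1 to 4), and 85 held Il5 or Il13 (2, 12, 14 and 57). Library 4 thus held 57 of the 85, while library 1 held many Il4-only cells and nearly no cell with Il5 or Il13. Among the 85, 39 held both Il5 and Il13, and 24 held all 3 cytokines.

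**Figure D1:**
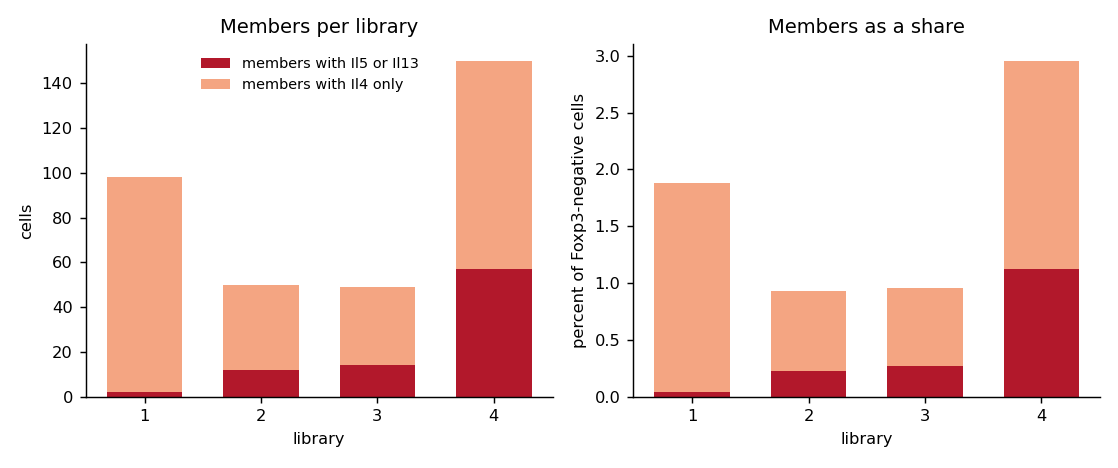
Number of type 2 cytokine-positive Foxp3-negative cells (members in the plot, left) and their percent of Foxp3-negative cells (right) in each of the 4 libraries, with cells holding Il5 or Il13 stacked apart from Il4-only cells. Library 4 held 150 and library 1 held 98, of which 57 and 2 held Il5 or Il13.

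The values that chose the cells are given as a description. Of 347 cells, 151 held 1 cytokine UMI, 61 held 5 or more, and the highest held 53. Gata3 was at 1 UMI in 108 and at 2 or more in 239, and 61 cells entered with 1 UMI of each. Summed Gata3 was 283, 549, 620.2 and 679.9 UMIs per 1000000 UMIs (CPM) in the chosen cells of libraries 1 to 4, against 63.8, 100.2, 100.1 and 109 CPM in cytokine-negative cells. Just outside the rule were 332 cytokine-positive cells with no Gata3 UMI (240, 26, 22 and 44 in libraries 1 to 4) and 103 cells with a cytokine, Gata3 and Foxp3.

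Library 1 stood apart in Il4, and so did its chosen cells in other respects. An Il4 UMI was found in 6.53%, 1.62%, 1.4% and 3.66% of the kept cells of libraries 1 to 4, and 51 of the 98 chosen cells of library 1 held a single Gata3 UMI. Ifng, the main cytokine of type 1 cells, had a UMI in 58.2% of the chosen cells of library 1 and in 22.0%, 12.2% and 20.7% of those of libraries 2 to 4, against 32.9% to 36.5% of cytokine-negative cells. For these reasons the text calls the cells by their rule and not Th2 cells, and gives results that rest on library 1 also without it.

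The rule, which needs UMIs of lowly counted genes, took deeper cells: the median was 5440 UMIs in chosen cells against 3825 in cytokine-negative cells. The doublet caller Scrublet, used only as an alternative, removed 9.22% of chosen cells against 4.0% of cytokine-negative cells. Both differences moved with every gene result below, and their part was not tested beyond the alternatives that matched depth or removed those cells.

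Nearly all chosen cells held transcripts of the CD3 part of the T cell receptor complex. Cd3e had a UMI in 99.6 ± 0.51% of chosen cells against 99.3 ± 0.057% of cytokine-negative cells (SD, n = 4 libraries), and none of the 8 genes of that list passed the test below. Innate lymphoid cells also make these cytokines, and whether any were among the chosen cells was not tested. Of 11 mast cell and basophil markers, 9 were at 0 in chosen cells, the proteases Cpa3, Mcpt1 and Mcpt8 and the receptor chains Fcer1a and Ms4a2 among them, and the list summed to 0 to 24.6 CPM in chosen cells and 1.6 to 2.5 CPM in cytokine-negative cells. Kit, the stem cell factor receptor, made up most of that sum, with a UMI in 17 chosen cells, 16 of them in library 4. Epithelial and tuft markers summed to 11.3 to 74.9 CPM in chosen cells against 10.8 to 17.3 CPM, with 6 of 8 at 0 in chosen cells, Alpi, Fabp2, Krt20 and Trpm5 among them. The 1 gene of that list tested below was higher in chosen cells but was not called (log2 fold change 1.09). Plasma cell markers summed to 72.8 to 158 CPM in chosen cells against 184.5 to 880.3 CPM in cytokine-negative cells, with Igha and Mzb1 at 0 in chosen cells, and myeloid markers to 216.5 to 339.5 CPM against 278 to 431 CPM, with Itgax at 0. B cell markers summed to 100.3 to 166.5 CPM against 57.2 to 105 CPM, with Cd79a and Ms4a1 at 0 in chosen cells. Ighm, the 1 gene of that list tested below, was called higher in chosen cells (log2 fold change 0.86). Zbtb16, the factor of innate-like T cells, had a UMI in 4.69 ± 4.11% of chosen cells against 0.142 ± 0.0767% of cytokine-negative cells. This share differed between libraries, as its SD shows, and the difference in share was not tested. On its list of 7 markers of innate-like T cells, 2 genes were tested below and 0 passed (median log2 fold change -0.12).

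For the first comparison UMIs were summed per library and class, and edgeR's quasi-likelihood test with library as a block was applied to 7601 genes, leaving out the 5 genes of the rule and its exclusion (Il4, Il5, Il13, Gata3 and Foxp3). It called 266 genes at a Benjamini-Hochberg adjusted p under 0.05, 3.5% of those tested: 186 were higher in chosen cells (2.45%) and 80 lower (1.05%). The 4 libraries of chosen cells lay all above those of cytokine-negative cells in 3.87% of the genes tested and all below them in 8.35%. Scaled by library size alone, the split was 151 higher and 117 lower. Without library 1 the test called 624 of 7613 genes, 377 higher and 247 lower. Without libraries 2, 3 or 4 it called 106, 123 and 115. Differences are log2 fold changes with their standard errors, and CPM values are levels.

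Several receptors of type 2 cells were higher, but not the list as a whole. Of 17 tested genes on that list, 7 rose and 1 fell (median log2 fold change 0.86, against 0.003 over all genes tested). 11 rose and 2 fell without library 1, and 4 rose and 0 fell of 16 without library 4. Il17rb, the subunit that binds interleukin-25, had 11.6, 62.8, 62.4 and 148 CPM in chosen cells of libraries 1 to 4, against 1.47, 4.07, 2.76 and 3.79 CPM in cytokine-negative cells. The classes did not overlap, and the lowest level in chosen cells was that of library 1 (log2 fold change 4.47 ± 0.38, adjusted p = 5.2e-05, edgeR). Nmur1, the receptor for the neuropeptide neuromedin U, had 5.81, 29.8, 66.6 and 156 CPM in chosen cells against 0.630, 1.5, 1.09 and 1.13 CPM in cytokine-negative cells (5.64 ± 0.60, adjusted p = 3.1e-04, edgeR). Its level in library 4 was the highest and that in library 1 the lowest, and the classes did not overlap.

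Il1rl1, the interleukin-33 receptor, had 21.8, 69.4, 62.4 and 26.5 CPM in chosen cells against 4.45, 12.4, 8.65 and 5.79 CPM in cytokine-negative cells (2.51 ± 0.25, adjusted p = 2.0e-04, edgeR). Klrg1, an inhibitory receptor for cadherins, had 55.2, 304, 321 and 53.9 CPM against 11.2, 33.4, 22.4 and 13.4 CPM (2.95 ± 0.27, adjusted p = 8.4e-05, edgeR). Both receptors were highest in libraries 2 and 3, where Nmur1 was not, and both kept the classes apart. Cysltr1, the receptor for cysteinyl leukotrienes, had 10.2, 6.61, 33.3 and 44.4 CPM against 0.965, 1.72, 1.24 and 1.09 CPM (4.26 ± 0.64, adjusted p = 0.0033, edgeR). None of these 5 receptors lost its call under any alternative that tested it. Ccr4, a chemokine receptor of type 2 and skin-homing T cells, averaged 87.1 CPM against 51.8 CPM (0.86 ± 0.17), and Il2ra, the alpha chain of the interleukin-2 receptor, averaged 52.1 CPM against 18.0 CPM (1.46 ± 0.29; adjusted p = 0.018 for Ccr4 and 0.016 for Il2ra, edgeR). Il18r1, the interleukin-18 receptor of type 1 cells, fell (-0.90 ± 0.20, adjusted p = 0.027, edgeR). These 3 calls were lost without library 2, 3 or 4, that for Ccr4 also in thinned cells and that for Il18r1 with no library block. Ptgdr2, the prostaglandin D receptor often used to mark type 2 cells, had no UMI in any of the 347 chosen cells, which allows a share of cells with a UMI of up to 0.865%. This limit lies above the share in cytokine-negative cells, so a difference was not detectable at this depth. It was found in 0.212 ± 0.0474% of cytokine-negative cells.

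Of 15 tested genes for secreted or surface mediators of type 2 and repair responses, 4 rose and 0 fell (median 0.56). Areg, the epidermal growth factor family member amphiregulin, had 202, 668, 795 and 401 CPM in chosen cells against 190.5, 161, 122 and 111 CPM in cytokine-negative cells (1.78 ± 0.32, adjusted p = 0.0091, edgeR). The difference was largest in libraries 2, 3 and 4, and library 1 was near its cytokine-negative cells. The call for Areg was lost without library 2 or 3, without the cells of highest Scrublet score and with at least 2 cytokine UMIs asked for, with adjusted p up to 0.10 over all alternatives (edgeR). Calca, whose transcripts encode calcitonin or the neuropeptide CGRP, had 100.3, 49.6, 183 and 197 CPM against 21.7, 30.6, 17.6 and 21.0 CPM (2.63 ± 0.32, adjusted p = 7.6e-04, edgeR), and the counts do not tell these transcripts apart. Csf2, the cytokine GM-CSF, had 13.1, 33.1, 29.1 and 16.1 CPM against 3.44, 4.20, 1.28 and 2.74 CPM (2.90 ± 0.49, adjusted p = 0.0065, edgeR). These levels rest on 9, 10, 7 and 17 UMIs in chosen cells, and the call for Csf2 was lost without library 2. Cd40lg, the ligand by which helper cells license B cells, rose least (0.34 ± 0.08, adjusted p = 0.032, edgeR), to 816 ± 44.4 CPM against 679.5 ± 58.7 CPM (SD, n = 4). Its call was lost in 6 of 17 alternatives, scaling by library size, matched or thinned depth and leaving out library 2, 3 or 4, with adjusted p up to 0.19 (edgeR).

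**Figure D2:**
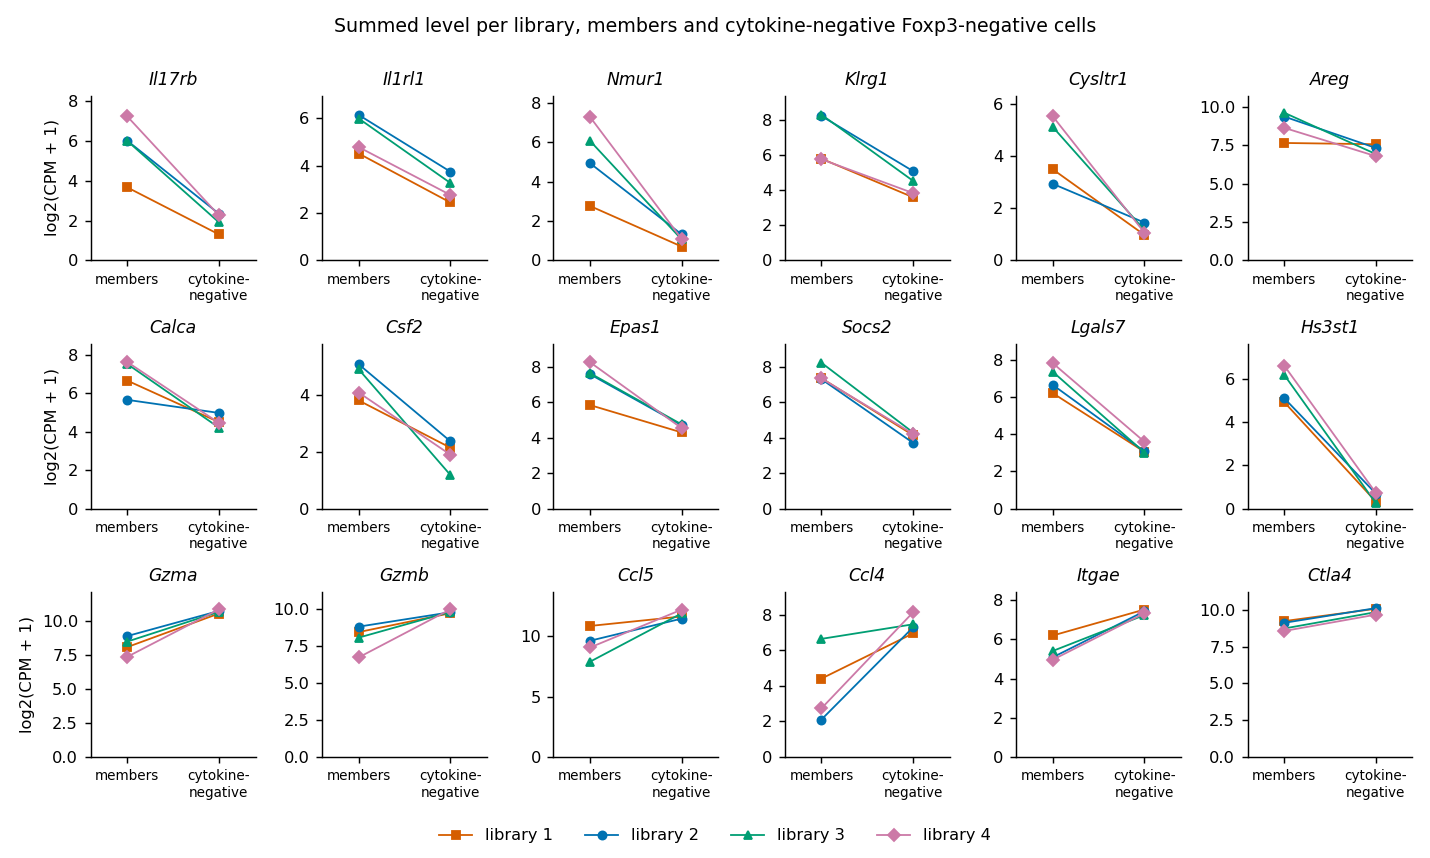
Summed level of 18 genes, as log2(CPM + 1), in chosen cells (members, left of each panel) and in cytokine-negative cells (right), with 1 line per library. Il17rb, Nmur1 and Hs3st1 were higher in chosen cells of all 4 libraries, Gzma and Itgae were lower in all 4, and library 1 had the smallest difference in Il17rb, Nmur1 and Epas1.

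Of 24 tested transcription factor genes of the type 2 list, 4 rose and 0 fell, and the list's median was 0.14. Epas1, a hypoxia-inducible factor, had 56.7, 192, 199.8 and 307 CPM in chosen cells against 18.8, 25.2, 26.0 and 22.3 CPM in cytokine-negative cells (3.01 ± 0.28, adjusted p = 1.1e-04, edgeR). The other 3, Zeb2, Nfil3 and Satb1, each lost the call when library 2, 3 or 4 was left out, with log2 fold changes of 1.88 ± 0.41, 1.04 ± 0.23 and 0.74 ± 0.17. Zeb2, a factor of terminal effector cells, rested on 78 UMIs of library 4 among 6, 6, 15 and 78, and in library 1 it was lower in chosen cells, at 8.72 CPM against 10.3 CPM. Of the genes for cytokine feedback and survival, 1 of 12 rose, Socs2, a STAT-induced inhibitor of cytokine signalling. It had 161, 155, 296 and 159.8 CPM against 16.6, 12, 18.5 and 17.6 CPM (3.57 ± 0.16, adjusted p = 6.2e-07, edgeR), and library 1 was as high as libraries 2 and 4.

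Several genes outside these lists showed the largest differences. Hs3st1, a heparan sulfate sulfotransferase (chromosome 5, 39613935 to 39755475, minus strand), had 29.1, 33.1, 70.8 and 95.5 CPM in chosen cells against 0.252, 0.619, 0.190 and 0.653 CPM in cytokine-negative cells (7.06 ± 0.50, adjusted p = 1.6e-05, edgeR). Within the chosen cells its UMIs lay in those with Il5 or Il13, with 20, 10, 17 and 93 UMIs in libraries 1 to 4 against 0, 0, 0 and 8 in Il4-only cells. The 20 UMIs of library 1 thus came from no more than 2 cells. The cytokine-negative cells held 6, 14, 4 and 15 UMIs of it. Lgals7, a galectin, had 72.7, 99.2, 162 and 224 CPM against 7.30, 7.43, 7.08 and 11.1 CPM (4.08 ± 0.22, adjusted p = 1.4e-06, edgeR). Deptor, an inhibitor of the mTOR kinase, rose by 6.14 ± 0.75, Lgmn, the lysosomal protease legumain, by 3.83 ± 0.43, Ptpn13, a tyrosine phosphatase, by 3.16 ± 0.26, and Rab4a, a GTPase of recycling endosomes, by 2.96 ± 0.33 (adjusted p = 7.5e-04, 4.0e-04, 4.4e-05 and 4.1e-04, edgeR). Acod1, which makes itaconate, rose by 3.50 ± 0.47 and Pxdc1 by 4.65 ± 0.59 (adjusted p = 0.0016 and 1.0e-03, edgeR). The call for Acod1 was lost when cells were thinned to 2000 UMIs before they were chosen. Ifitm2, an interferon-inducible membrane protein gene, rose by 2.60 ± 0.19 (adjusted p = 1.6e-05, edgeR), and reads of its near paralog Ifitm3 may have been split with it.

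Some type 1 and cytotoxic genes were lower. Of 13 tested Th1 genes 4 fell and 0 rose (median -0.60), and of 8 cytotoxic genes 2 fell and 0 rose (median -0.87). Without library 1, 9 of 13 Th1 genes and 6 of 8 cytotoxic genes fell, in a fit that called 247 of 7613 genes lower. Gzma, the gene of granzyme A, had 267, 469, 354 and 163 CPM in chosen cells against 1480.2, 1690.0, 1615 and 1829.7 CPM in cytokine-negative cells (-2.45 ± 0.20, adjusted p = 4.8e-05, edgeR). Gzmb, granzyme B, had 346, 446, 266 and 105 CPM against 838, 877, 891 and 1003 CPM (-1.72 ± 0.28, adjusted p = 0.0051, edgeR). In both, the classes did not overlap, and neither call was lost under any alternative. Ccl5, a chemokine of cytotoxic and type 1 cells, had 1859.8, 793, 237 and 538 CPM against 3207, 2837, 3839.8 and 4761 CPM (-2.24 ± 0.37, adjusted p = 0.0057, edgeR), with library 1 nearest to its cytokine-negative cells. Ccl4, another such chemokine, fell by 3.06 ± 0.52 and lost the call without library 2, Prf1, perforin, fell by 1.83 ± 0.29 and lost it without library 4 and in thinned cells, and Nkg7, a protein of cytotoxic granules, fell by 0.70 ± 0.11 (adjusted p = 0.0073, 0.0051 and 0.0045 over all libraries, edgeR).

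Genes of tissue position and of other T cell states also differed. Itgae, the alpha chain of the integrin that holds T cells in the epithelium, had 72.7, 33.1, 41.6 and 30.3 CPM in chosen cells against 184, 173, 151 and 161 CPM in cytokine-negative cells (-1.87 ± 0.18, adjusted p = 1.5e-04, edgeR). It was one of 12 tested tissue residence genes, of which 2 rose (Rgs2 and Gpr183) and 1 fell. Ccr7, the receptor for entry into lymph nodes, fell by 3.27 ± 0.42, with 8 UMIs in all chosen cells (adjusted p = 0.0011, edgeR), and S1pr1, the receptor for leaving tissue, fell by 1.34 ± 0.31 (adjusted p = 0.034, edgeR). Ccr7 lost its call in cells thinned to 2000 UMIs, and S1pr1 in 7 of 16 alternatives, DESeq2 and each library left out among them. Ctla4, a checkpoint receptor, had 602, 555, 425 and 377 CPM in chosen cells against 1078, 1109, 919.6 and 816 CPM in cytokine-negative cells (-0.94 ± 0.07, adjusted p = 3.1e-05, edgeR). No alternative lost the calls for Itgae and Ctla4. Ctla4 was on the Treg list, of which Tnfrsf18 and Tnfrsf4 (the receptors GITR and OX40) rose, so 2 of 8 tested genes rose and 1 fell. The call for Tnfrsf4 was lost in 8 of 17 alternatives and that for Tnfrsf18 in 3, both without library 2 or 3. On the Tfh list 1 of 8 rose, Izumo1r, a folate receptor family member (1.08 ± 0.21), and 1 fell, Il21, a cytokine of follicular helper cells (-1.33 ± 0.31; adjusted p = 0.016 and 0.038, edgeR). Il21 rested on 4, 2, 1 and 13 UMIs in chosen cells and lost its call in 7 of 16 alternatives, and Izumo1r lost it in 4 of 17, without library 2 or 3 and at matched or thinned depth. The other genes named by the rule for the lowest fold changes were Baiap3, Cd7, Card6, Jaml, Smim3, Dtx1, Gpr55, Trat1 and Anxa2, at -1.86 ± 0.31 to -1.02 ± 0.15; all but Jaml lost the call in 1 to 5 of the alternatives. Cd7 and Trat1 act on T cell signalling and Jaml on binding to epithelium.

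**Figure D3:**
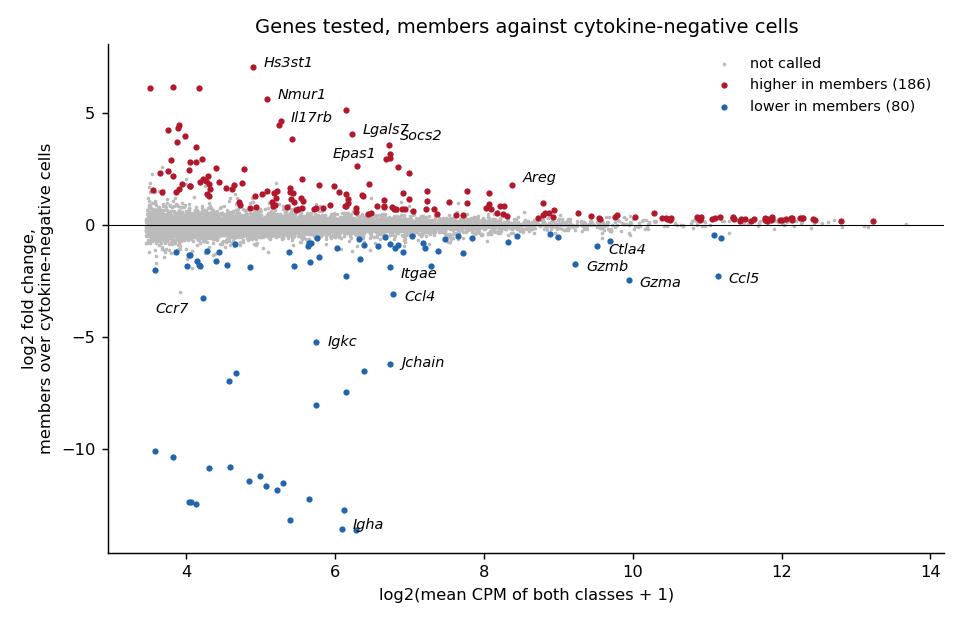
Log2 fold change of chosen over cytokine-negative cells against mean level, as log2(CPM + 1), for the 7601 genes tested, with the 186 genes called higher and the 80 called lower in colour. Hs3st1, Nmur1 and Il17rb stand highest among the labelled genes, and most of the lowest points are immunoglobulin genes.

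Other lists held few calls. None of 10 cycling genes, 11 TCR-induced genes, 11 lipid handling genes or 6 interferon-response genes passed the test, and 1 of 13 tissue dissociation stress genes (Zfp36) and 1 of 14 glycolysis genes (Ldha) rose, both calls being lost without library 2, 3 or 4. Of the ribosomal protein genes, 37 of 94 rose and 0 fell (median 0.21). That count was 71 without library 1, 2 without library 4 and 2 of 95 in cells thinned to 2000 UMIs before they were chosen. Immunoglobulin genes made up 24 of the 80 genes called lower, while DESeq2 called 3 of 26 lower and cells of 3000 to 8000 UMIs left 2 of them to test, with 0 lower. Ighm went the other way, as the 1 immunoglobulin gene called higher. Jchain, the joining chain of secreted antibody, had 2.91, 3.31, 0 and 2.84 CPM in chosen cells against 50.7, 353, 167 and 269 CPM in cytokine-negative cells, and H2-Aa, a class II antigen presentation gene, had 8.72, 9.92, 0 and 7.57 CPM against 39.1, 28, 23.4 and 19.0 CPM. The part of RNA from plasma cells and antigen-presenting cells in these values was not tested.

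Il17a, Ifng, Il22, Il10 and Tbx21, which mark other helper classes, did not pass the test over all libraries. Il17a had 239.7, 36.4, 945 and 392 CPM in chosen cells against 236, 85.7, 77.2 and 112 CPM in cytokine-negative cells (1.47 ± 0.54, adjusted p = 0.23, edgeR). These levels rested on 4, 2, 5 and 15 chosen cells with an Il17a UMI. The highest cell held 115 of 165, 10 of 11, 120 of 227 and 141 of 415 UMIs in libraries 1 to 4. Ifng had 443, 109, 196 and 88.9 CPM against 278, 346, 339 and 291 CPM (-0.68 ± 0.32, adjusted p = 0.38, edgeR), being higher in chosen cells of library 1 and lower in those of the other libraries. The log2 fold changes were -1.15 ± 0.35 for Il22, -0.33 ± 0.26 for Il10 and -0.12 ± 0.24 for Tbx21, the factor of type 1 cells (adjusted p = 0.12, 0.70 and 0.95, edgeR). Without library 1, 4 of the 5 passed: Il17a was higher in chosen cells (2.09 ± 0.43), and Ifng (-1.36 ± 0.16), Il22 (-1.74 ± 0.41) and Tbx21 (-0.63 ± 0.17) were lower (adjusted p = 0.0043, 2.0e-05, 0.012 and 0.028, edgeR). Il17a passed in 3 of 16 alternatives, the other 2 being thinned cells (2.11 ± 0.27) and no filter on low counts (1.41 ± 0.19). It was at 0.64 ± 0.39 without library 3 and 0.68 ± 0.74 without Trbv15 cells, described below (adjusted p = 0.64 and 0.81, edgeR). For Il10 and Tbx21 the direction itself turned under other alternatives, given in the closing section. On the Th17 list 0 of 8 rose and 1 fell, Tmem176b. Without library 1, 2 of 9 rose and 2 fell.

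The second comparison asked what differed from other cells that hold Gata3. It set the same summed chosen cells against the 5268 cytokine-negative Foxp3-negative cells that also held Gata3, so its values are not independent of those above. Gata3 itself was not matched, at 283, 549, 620.2 and 679.9 CPM in chosen cells against 251, 333, 321 and 310.5 CPM in these cells. Of 7618 genes, 250 were called, 3.28%, with 187 higher (2.45%) and 63 lower (0.827%), and with 106 higher and 76 lower when scaled by library size alone. The classes lay apart upward in 2.84% and downward in 8.49% of the genes tested. Receptors of type 2 cells again rose, 9 of 17 with 1 lower (median 0.64, against -0.005 over all genes tested), and 5 of 16 rose and 0 fell without library 4. Hs3st1 had 29.1, 33.1, 70.8 and 95.5 CPM in chosen cells against 0, 1.62, 0 and 1.5 CPM in Gata3-positive cytokine-negative cells (6.24 ± 0.59, adjusted p = 1.7e-04, edgeR). Il17rb had 11.6, 62.8, 62.4 and 148 CPM in chosen cells against 2.47, 9.26, 5.03 and 8.48 CPM in Gata3-positive cytokine-negative cells, and chosen cells stayed above them in every library (3.52 ± 0.31, adjusted p = 1.2e-04, edgeR). Nmur1 had 5.81, 29.8, 66.6 and 156 CPM against 2.14, 3.67, 3.20 and 2.62 CPM (4.36 ± 0.56, adjusted p = 0.0017, edgeR). Areg had 202, 668, 795 and 401 CPM against 223, 244, 193 and 177 CPM (1.23 ± 0.26, adjusted p = 0.027, edgeR). For Areg library 1 went the other way, and the call was lost with DESeq2 and without library 2, 3 or 4.

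Among the genes called lower against Gata3-positive cells were Gzma (-2.02 ± 0.20), Ccl5 (-1.80 ± 0.35) and Itgae (-1.69 ± 0.17; adjusted p = 2.0e-04, 0.018 and 3.1e-04, edgeR). The call for Ccl5 was lost with no library block and without library 2, 3 or 4. Th1 genes fell in 5 of 13 and rose in 0, while 1 fell without library 4. Of 8 Th17 genes, 3 fell and 0 rose: Ccr6, the chemokine receptor of type 17 cells (-2.03 ± 0.41), Il22 (-1.37 ± 0.33) and Tmem176b. Il22 had 118, 76.0, 0 and 2.84 CPM in chosen cells against 219.9, 149.6, 33.8 and 47.2 CPM in Gata3-positive cytokine-negative cells (adjusted p = 0.048, edgeR), and Ccr6 had 8.72, 23.1, 0 and 2.84 CPM against 45.0, 29.8, 22.7 and 23.6 CPM (adjusted p = 0.023, edgeR). The call for Ccr6 was lost without library 1, 3 or 4 and that for Il22 in 10 of 17 alternatives, DESeq2 among them, and without library 1 the Th17 list had 2 of 9 higher and 1 lower. Apoe, apolipoprotein E, fell by 1.83 ± 0.36, with 2.91, 6.61, 4.16 and 18.9 CPM against 40.4, 35.4, 40.8 and 37.9 CPM (adjusted p = 0.02, edgeR), a call lost without library 2 or 3 and at matched or thinned depth.

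The third comparison set the chosen cells against the other Gata3 class of this tissue, the 1123 cells with Foxp3 and Gata3. Cytokines played no part in choosing this class, so it includes the 103 cells with a cytokine, Gata3 and Foxp3. The comparison used the same sums of chosen cells, and 498 of 7599 genes were called, 6.55%, with 250 higher (3.29%) and 248 lower (3.26%). The classes lay apart upward in 4.28% and downward in 7.57% of the genes tested. Treg genes fell in 12 of 13 (median -2.19, against 0.016 over all genes tested). Foxp3 was part of the rule, so this direction on Foxp3-linked genes is a description of the gate. Ctla4 had 602, 555, 425 and 377 CPM in chosen cells against 1814, 1715, 1684 and 1368 CPM in Foxp3 Gata3 cells (-1.72 ± 0.07, adjusted p = 1.1e-06, edgeR). Ikzf2, the factor Helios, had 82.8, 251, 237 and 116 CPM against 821, 707, 789.6 and 591 CPM (-2.19 ± 0.23, adjusted p = 2.7e-04, edgeR).

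Type 2 receptors were split between these classes: 5 were higher in chosen cells and 6 lower, of 17. Il1rl1 had 21.8, 69.4, 62.4 and 26.5 CPM in chosen cells against 158, 153, 152 and 91.0 CPM in Foxp3 Gata3 cells (-1.76 ± 0.24, adjusted p = 0.0012, edgeR). Klrg1 had 55.2, 304, 321 and 53.9 CPM against 589, 775, 765 and 531 CPM (-2.22 ± 0.32, adjusted p = 0.0018, edgeR), so both receptors were lower in chosen cells of every library. Il17rb and Nmur1 were among the 5 that rose, with Il17rb at 11.6, 62.8, 62.4 and 148 CPM in chosen cells against 19.1, 24.3, 24.1 and 24.9 CPM in Foxp3 Gata3 cells. Nmur1 had 5.81, 29.8, 66.6 and 156 CPM in chosen cells against 11.7, 19.6, 21.7 and 17.9 CPM. In library 1 both were lower in chosen cells, and both calls were lost with DESeq2 and without library 2, 3 or 4, so that 1 of 17 receptors rose and 6 fell without library 4.

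Mediators differed as well, with 5 of 15 higher and 3 lower. Areg had 202, 668, 795 and 401 CPM in chosen cells against 1624, 1576, 1683 and 1046 CPM in Foxp3 Gata3 cells (-1.61 ± 0.25, adjusted p = 0.0023, edgeR), and Il10 had 18.9, 29.8, 12.5 and 39.7 CPM against 356, 279.9, 309 and 205 CPM (-3.24 ± 0.27, adjusted p = 5.8e-05, edgeR). Penk, the precursor of enkephalins, fell by 2.90 ± 0.35 (adjusted p = 6.5e-04, edgeR). Cd40lg had 812, 774, 878 and 801 CPM against 189.8, 259, 171 and 289 CPM (1.90 ± 0.14, adjusted p = 2.7e-05, edgeR), and Il2, the T cell growth factor, had 296, 106, 25.0 and 66.2 CPM against 16.4, 15.8, 14.5 and 14.1 CPM (2.94 ± 0.36, adjusted p = 6.7e-04, edgeR). Il17a was higher in the summed chosen cells of all 4 libraries, at 239.7, 36.4, 945 and 392 CPM against 26.5, 29.4, 50.6 and 96.4 CPM (2.75 ± 0.40, adjusted p = 0.0019, edgeR). As given above, these sums rested on 4, 2, 5 and 15 chosen cells, with 10 of the 11 UMIs of library 2 in 1 cell. The call for Il17a was lost without cells using Trbv15, described below. Gzma was lower here too, at 267, 469, 354 and 163 CPM in chosen cells against 2980.1, 2264, 1621 and 2045 CPM (-2.92 ± 0.22, adjusted p = 3.4e-05, edgeR).

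The chosen cells were then divided by cytokine. The 262 Il4-only cells alone, set against the same cytokine-negative cells as in the first comparison, gave 233 calls among 7594 genes, 3.07%, with 155 higher (2.04%) and 78 lower (1.03%). The classes lay apart upward in 3.86% and downward in 7.72% of the genes tested. Socs2 had 159, 163, 373 and 191 CPM in Il4-only cells against 16.6, 12, 18.5 and 17.6 CPM in cytokine-negative cells (3.72 ± 0.18, adjusted p = 2.6e-07, edgeR). Il17rb had 7.44, 38.7, 45.2 and 67.1 CPM against 1.47, 4.07, 2.76 and 3.79 CPM (3.64 ± 0.42, adjusted p = 3.0e-04, edgeR), Il1rl1 rose by 2.77 ± 0.27, and Klrg1 rose by 3.05 ± 0.23 (adjusted p = 5.8e-05 and 8.6e-06, edgeR). Type 2 receptors thus rose in 8 of 17 and fell in 1 without any cell that held Il5 or Il13 (5 of 16 and 0 without library 4). Of 7 tested Th17 genes, 5 fell and 0 rose, Il17a and Il22 among those that fell. Il17a had 74.4, 43.0, 90.3 and 25.9 CPM in Il4-only cells against 236, 85.7, 77.2 and 112 CPM in cytokine-negative cells (-1.33 ± 0.26, adjusted p = 0.013, edgeR), and library 3 went the other way. The call for Il17a was lost in 5 of 15 alternatives: with no library block, without library 4, at matched or thinned depth and without Trbv15 cells (adjusted p up to 0.54, edgeR). Of the 7, 2 fell without library 1, and 1 fell without library 4.

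Cells with Il5 or Il13 could be set against Il4-only cells in libraries 2 to 4 only, since library 1 held 2 cells with Il5 or Il13. This choice was made after the cells had been counted. The classes held 12, 14 and 57 cells with Il5 or Il13 and 38, 35 and 93 Il4-only cells. edgeR called 183 of 7459 genes, 2.45%, with 90 higher (1.21%) and 93 lower (1.25%), and DESeq2 called 17, with 11 higher and 6 lower. In that edgeR fit all genes took one common spread, which makes its p-values too small for genes that vary between libraries. The genes named first below were called by both tools, a choice made after their values were seen. Il1rl1, Il17rb, Trac, Trgv2, Tcrg-C1, Kit and Il17a, given after them, were called by edgeR alone. All 17 genes of DESeq2 were among those of edgeR.

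Hs3st1 had 144, 269.6 and 232 CPM in cells with Il5 or Il13 against 0, 0 and 12.2 CPM in Il4-only cells of libraries 2 to 4 (DESeq2 log2 fold change 5.38 ± 0.87, adjusted p = 9.8e-07). In Il4-only cells it was thus at 0 in libraries 2 and 3. Nmur1 had 71.8, 143 and 374 CPM against 17.2, 39.5 and 22.9 CPM (2.83 ± 0.66, adjusted p = 0.0071, DESeq2). Pcsk1, a prohormone convertase that cleaves peptide hormones, had 100.5, 15.9 and 169 CPM against 8.59, 0 and 9.15 CPM (3.94 ± 0.94, adjusted p = 0.01, DESeq2), resting on 7, 1 and 68 UMIs. Lgmn had 229.6, 269.6 and 271 CPM against 21.5, 45.2 and 36.6 CPM (2.91 ± 0.50, adjusted p = 4.2e-06, DESeq2) and was nearly even across the 3 libraries. Serp1, a protein of the endoplasmic reticulum stress response, had 861, 745 and 1004 CPM against 228, 294 and 306 CPM (1.64 ± 0.27, adjusted p = 9.8e-07, DESeq2). Dkk3, Cyb5a, Gm2a, Vim, Cd52 and the unnamed transcript 1700061F12Rik were the others called higher. Without library 4 the edgeR calls for Nmur1, Pcsk1, Dkk3, Cyb5a and Vim were lost, and in cells thinned before they were chosen 24 of the 26 genes examined lost the edgeR call, all but Ccl5 and Il17a.

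The 6 genes called lower by both tools were Ccl5, Lilr4b, Vps37b, Pim1, Gimap6 and Dusp5. Ccl5 had 258, 0 and 132 CPM in cells with Il5 or Il13 against 954, 322 and 787 CPM in Il4-only cells (-2.59 ± 0.39, adjusted p = 1.5e-07, DESeq2). Lilr4b, an inhibitory receptor, had 57.4, 31.7 and 34.9 CPM against 283, 384 and 226 CPM (-2.80 ± 0.54, adjusted p = 1.5e-04, DESeq2). Pim1, a STAT-induced kinase, had 387, 301 and 192 CPM against 734, 706 and 485 CPM (-1.20 ± 0.29, adjusted p = 0.01, DESeq2), and in each of these genes the 3 libraries of one class lay apart from those of the other. Such separation was seen downward in 7.16% of all genes tested and upward in 6.61%. Il1rl1 had 14.4, 15.9 and 9.96 CPM in cells with Il5 or Il13 against 85.9, 79.0 and 36.6 CPM in Il4-only cells, and Il17rb had 144, 111 and 279 CPM against 38.7, 45.2 and 67.1 CPM. edgeR called both (adjusted p = 0.012 and 1.5e-07), and DESeq2 called neither (adjusted p = 0.96 and 0.12).

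Some T cell receptor genes differed between these cells in the edgeR fit alone. Of the 8 genes of the T cell receptor complex, 1 was called by edgeR, Trac, the constant part of the alpha chain, with 287, 95.1 and 194 CPM in cells with Il5 or Il13 against 421, 474 and 284 CPM in Il4-only cells (-0.93 ± 0.23, adjusted p = 0.0044, edgeR). In cells thinned to 2000 UMIs, Trac had a UMI in 41.7%, 14.3% and 35.1% of cells with Il5 or Il13 of libraries 2 to 4, against 50%, 61.8% and 47.3% of Il4-only cells. Cd3e had 1894.4, 1982.2 and 1701 CPM against 1670.9, 1461.9 and 1503.3 CPM. Of 3 tested gamma-delta markers 2 were called higher by edgeR, the gamma chain genes Trgv2, at 129, 317 and 281 CPM against 81.6, 5.64 and 162 CPM (1.29 ± 0.28), and Tcrg-C1, at 71.8, 143 and 54.8 CPM against 43.0, 5.64 and 22.9 CPM (1.55 ± 0.44; adjusted p = 4.3e-04 and 0.021, edgeR). Trdc, the constant part of the delta chain, had 0 UMIs in cells with Il5 or Il13 of all libraries, and 8 UMIs in Il4-only cells. Kit had 0, 2 and 23 UMIs against 0, 0 and 2, and edgeR called it higher (adjusted p = 0.0012). DESeq2 called none of Trac, Trgv2 and Tcrg-C1 (adjusted p = 0.74, 0.999 and 0.999) and gave Kit no adjusted p. The edgeR calls for Trac, Trgv2 and Tcrg-C1 were also lost with no library block, without library 3 and in thinned cells, and those for Trac and Tcrg-C1 without Trbv15 cells.

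**Figure D4:**
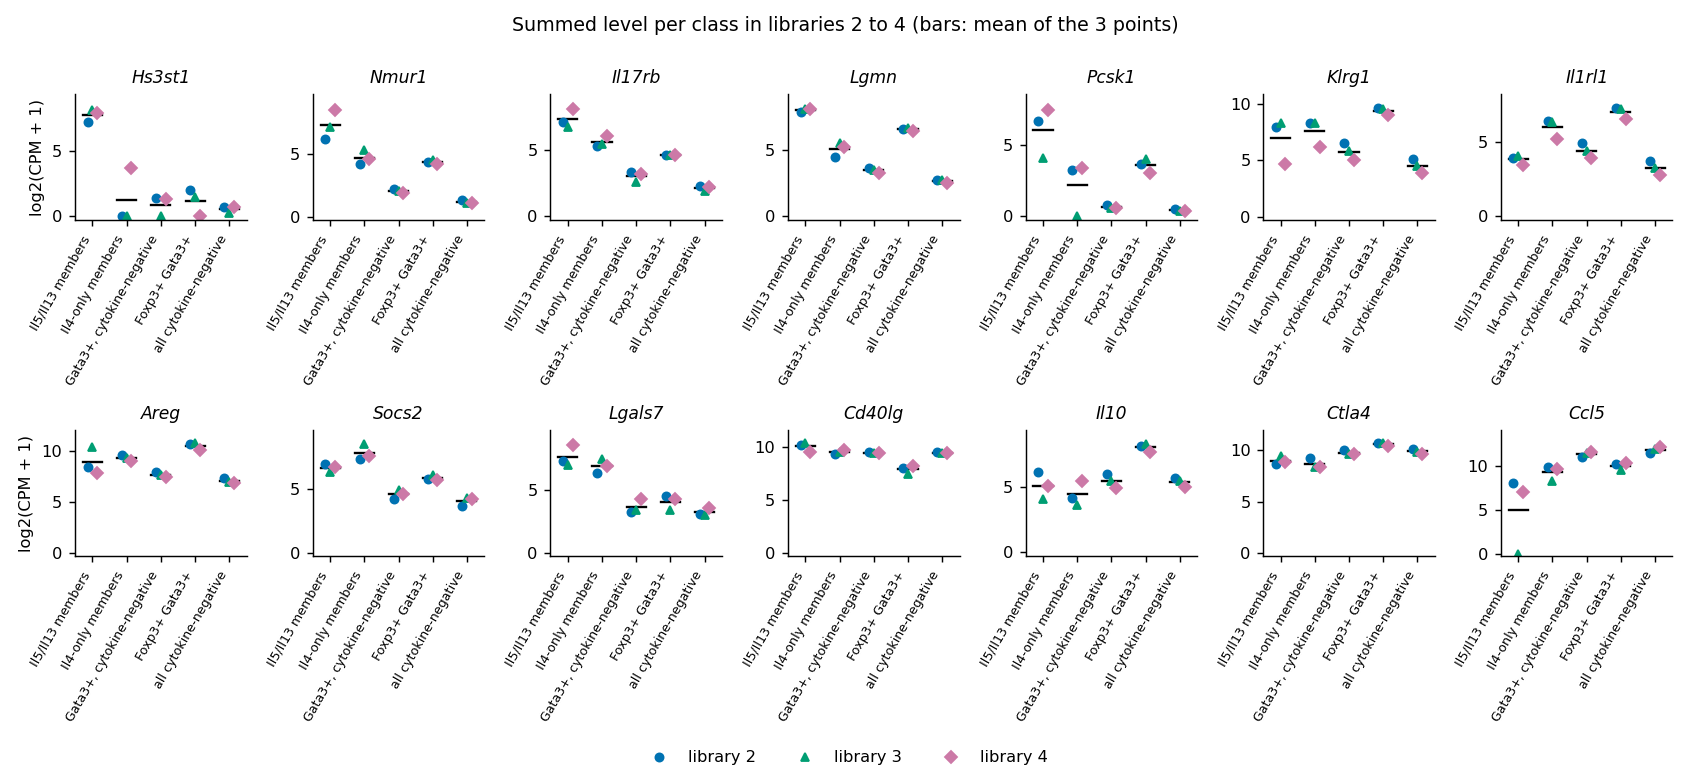
Level of 14 genes, as log2(CPM + 1), in 5 classes of cells over libraries 2 to 4, with a point per library and a bar at the mean of the points. From left to right the classes are cells with Il5 or Il13, Il4-only cells, cytokine-negative cells with Gata3, Foxp3 Gata3 cells and all cytokine-negative cells. Hs3st1, Nmur1 and Lgmn were highest in cells with Il5 or Il13, Socs2 in Il4-only cells, and Klrg1, Il1rl1, Areg and Ctla4 in Foxp3 Gata3 cells.

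Il17a transcripts were found in a part of the chosen cells. The share with an Il17a UMI was 4.08%, 4.0%, 10.2% and 10.0% in libraries 1 to 4 (4 of 98, 2 of 50, 5 of 49 and 15 of 150 cells; mean 7.07 ± 3.50%, SD, n = 4), against 4.72%, 2.53%, 1.72% and 2.54% of cytokine-negative cells (mean 2.88 ± 1.29%). Exact 95% binomial intervals, which cover counting error only, were 5.71% to 16% for chosen cells and 2.12% to 3.02% for cytokine-negative cells of library 4. In library 1 the intervals overlapped, at 1.12% to 10.1% against 4.14% to 5.35%. Thinned to 2000 UMIs per cell, the means were 5.69 ± 2.54% and 2.44 ± 1.16%, and 2 chosen and 722 cytokine-negative cells were too shallow to be thinned. As a check of free RNA, an Il17a UMI was found in 0 of 32 cells with class II genes and no CD3 transcript, which allows up to 9.38%. The difference in share was not tested, and the level of Il17a did not pass the gene-wide test over all libraries, as given above.

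The Il17a transcripts lay mostly in cells with Il5 or Il13. Of the 26 chosen cells with Il17a, 19 held Il5 or Il13. The share was 1 of 2, 1 of 12, 4 of 14 and 13 of 57 cells with Il5 or Il13 in libraries 1 to 4, or 8.33%, 28.6% and 22.8% in libraries 2 to 4, against 2.63%, 2.86% and 2.15% of Il4-only cells. In level, cells with Il5 or Il13 had 14.4, 3346 and 991 CPM in libraries 2 to 4 against 43.0, 90.3 and 25.9 CPM in Il4-only cells. Library 2 went the other way, and DESeq2 did not call the difference (3.75 ± 1.53, adjusted p = 0.75), while edgeR with the common spread gave 4.59 ± 0.24. The cells held up to 141 Il17a UMIs, 23 of the 26 held at least 2, and Scrublet removed 3 of them.

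T cell receptor V genes showed that part of these cells shared a beta chain gene. The V gene of a cell was taken as the Trbv gene with most UMIs, and no receptor sequence was read. In libraries 1 to 4 the chosen cells used 19, 17, 16 and 18 Trbv genes. Trbv15 was used by 2 of 95, 2 of 47, 1 of 47 and 28 of 150 chosen cells with a Trbv UMI, which was 2.11%, 4.26%, 2.13% and 18.7%, against 3.42%, 1.77%, 1.1% and 1.49% of cytokine-negative cells. In library 4, 24 of 57 cells with Il5 or Il13 used it (42.1%, exact 95% interval 29.1% to 55.9%) against 4 of 93 Il4-only cells (4.30%, 1.18% to 10.7%). The pair Trbv15 with Trav12-2 was found in 10 chosen cells of library 4, all with Il5 or Il13, and in 15 of 3528 cytokine-negative cells with both chains. Of the 26 chosen cells with Il17a, 13 used Trbv15, 11 of them in library 4. Cells of one library that share a receptor may share an ancestor, which was not tested, and they are not independent of each other.

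**Figure D5:**
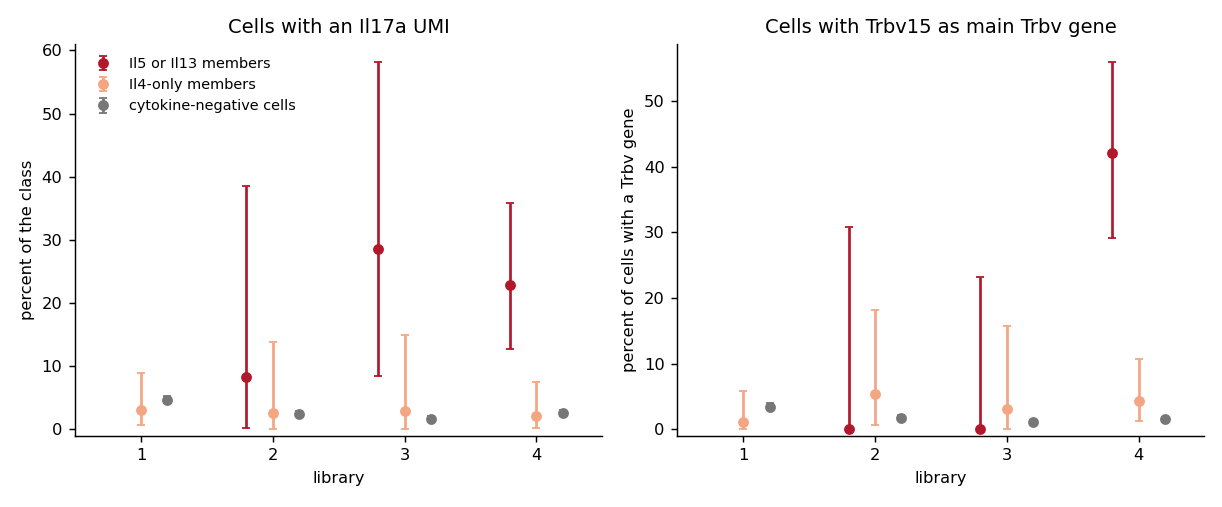
Percent of cells with an Il17a UMI (left) and percent using Trbv15 (right) per library in members with Il5 or Il13, members with Il4 only and cytokine-negative cells, with exact 95% binomial intervals; the 2 cells with Il5 or Il13 of library 1 are not drawn. In library 4, 22.8% of cells with Il5 or Il13 held Il17a and 42.1% used Trbv15, against 2.15% and 4.30% of Il4-only cells.

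Leaving out all Trbv15 cells, the first comparison called 286 genes, 201 higher and 85 lower, and 254 of the 266 genes were called again. The comparison of cells with Il5 or Il13 and Il4-only cells then called 93 genes in place of 183. Leaving out cells with Il17a gave 274 genes in the first comparison and 108 in the comparison by cytokine.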

How the data were processed

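For each library the authors deposited a matrix of raw UMI counts, made with Cell Ranger 3.0.2 on mm10, per the submitters' processing notes. The 4 libraries belong to 1 group. Of 22904 deposited barcodes, 22534 passed the filters of 500 genes, 1000 UMIs and no more than 10% mitochondrial UMIs, and totals per library were 23918884 to 28783972 UMIs. Binomial intervals are exact Clopper-Pearson intervals at 95%, and a count of 0 was given a limit of 3 counts. Doublets were kept; an alternative removed the 1033 cells with the highest Scrublet scores (scanpy 1.11.5), at 0.8% per 1000 barcodes.

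UMIs were summed per library and class, genes with a mean under 10 CPM were left out, and sums were tested with edgeR 4.0.16 (glmQLFit and glmQLFTest, TMM scaling, library as a block) at a Benjamini-Hochberg adjusted p under 0.05. DESeq2 1.42.0 and the other settings in the closing section were alternatives. The genes of the rule counted towards library sizes but were not tested. In the planned comparison of cells with Il5 or Il13 with Il4-only cells, library 1 was left out. The comparison of Il4-only with cytokine-negative cells, and the alternatives on CD3, Il17a and Trbv15, were added after seeing the data.

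Named genes were the 15 highest and 15 lowest fold changes among genes called, moving one way in all libraries and reaching 30 CPM in a class (in later comparisons the text stops earlier), and up to 5 genes of each of 28 lists, besides the helper cell cytokines and factors. Genes named for UMI counts within classes, those called by both tools, the receptor genes and Kit in the comparison by cytokine, and Il2ra, Ccr4, Il18r1 and Ptgdr2 were chosen after their values were seen. Members and lists were chosen with earlier results of these data known. On simulated data with 200 changed genes, the first comparison (7522 genes) recovered 56.8% of 2-fold and 97.9% of 4-fold changes, and the comparison by cytokine (7443 genes) 3.23% and 58.2%. The simulation gave all genes the same fixed spread and each change the same size in every library. Its rates thus do not cover changes that differ between libraries, as many did here. Some items are not reported here. Gene positions are those of GENCODE vM21, which held 30934 of 31053 gene IDs, and promoters are those of RefSeq.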

Additional observations from a re-analysis of the deposited data

Results flagged for a closer look

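In 11 of 135 groups of 4 libraries, 1 library stood farther from the others than Dixon's 95% limit allows; chance gives about 1 in 20 such groups, or 6.75 here. Library 1 stood apart in 6 of them, given first. Cytokine-positive cells without a Gata3 UMI were 4.61% of Foxp3-negative cells in library 1 and 0.429% to 0.867% in the others. In chosen cells of library 1, Pxdc1 was at 5.81 CPM (others 89.3 to 104 CPM), Smim3 at 58.1 CPM (others 15.1 to 19.8 CPM), Trat1 at 148 CPM (others 36.4 to 53.9 CPM), and Il18r1 at 126 CPM (others 54.1 to 59.5 CPM). S1pr1 was at 28 CPM in cytokine-negative cells of library 1, with the others at 19.7 to 20.4 CPM.

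In library 4, 18.7% of chosen cells used Trbv15, against 2.11% to 4.26% in the others, and Lgals7 was at 11.1 CPM in cytokine-negative cells, with the others at 7.08 to 7.43 CPM. In chosen cells of library 3, Socs2 was at 296 CPM (others 155 to 161 CPM), Ifitm2 at 346 CPM (others 135 to 169 CPM) and Jchain at 0 CPM (others 2.84 to 3.31 CPM).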

How the results depend on the processing

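Of 146 calls examined under the alternatives, with a gene counted once in each comparison, 0 changed direction. Among all 183 genes called for cells with Il5 or Il13 against Il4-only cells, 1 was called in the opposite direction without library 4. Of 5 named genes not called in the first comparison, Il10 turned to a log2 fold change of 0.085 in cells of 3000 to 8000 UMIs and 1.17 in thinned cells, and Tbx21 to 0.025 without library 2 and 0.11 without library 4, with -0.63 without library 1. Of the genes called, 25 of 56 in the first comparison were called under every alternative, as were 9 of 19 against Gata3-positive cells, 21 of 26 against Foxp3 Gata3 cells, 9 of 19 for Il4-only cells and 1 of 26 for cells with Il5 or Il13 against Il4-only cells. The counts of called genes moved more. Leaving out 1 library in turn gave 106 (without library 2) to 624 (without library 1) genes in the first comparison, 72 (without library 3) to 469 (without library 1) against Gata3-positive cells, 300 (without library 2) to 469 (without library 1) against Foxp3 Gata3 cells, 104 (without library 4) to 468 (without library 1) for Il4-only cells, and 58 (without library 4) to 170 (without library 2) for cells with Il5 or Il13. The cause of these shifts was not tested. Library is a block because both classes come from the same library; with no replicate block the counts were 121 against Gata3-positive cells, 99 for Il4-only cells and 80 for cells with Il5 or Il13, and within 1.5 times the main count in the other 2 comparisons. With no filter on low counts, more genes were tested and the counts were 610, 528, 853 and 467 for the first 3 comparisons and Il4-only cells. Choosing cells after thinning to 2000 UMIs left fewer chosen cells. It gave 185 genes in the first comparison, 134 against Gata3-positive cells, 257 against Foxp3 Gata3 cells, 119 for Il4-only cells and 5 for cells with Il5 or Il13. Of the 266 genes of the first comparison, 106 were called again after thinning. Leaving out library 1, 2, 3 or 4, 255, 98, 117 and 102 of the 266 were called again. DESeq2 called 279 genes against Foxp3 Gata3 cells and 17 for cells with Il5 or Il13. For these last cells a mean of at least 30 CPM gave 90, no Il17a cells 108 and no Trbv15 cells 93. The share of chosen cells was 0.72% after thinning and 3.28% with no demand on Gata3, and leaving out 1 library in turn gave 1.25% to 1.93%. The fit of cells with Il5 or Il13 over all 4 libraries was not run.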
